A study of Mus musculus with 6 samples.

Results

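Egr1, Egr2, Egr3, Egr4, Nr4a1, Nr4a3, Npas4, Ier2, Ier5 and Srf were followed in mouse cortex at postnatal day 7. They are early genes, which neurons transcribe within minutes of a stimulus, together with Srf, a factor that acts upstream of many of them. The 10 genes were picked by symbol from the 24972 genes of the deposited table, after the difference between the groups in this same table was known, so their group differences are a description and are not offered as evidence. All 10 were found, and all 10 passed the filter of at least 10 normalized counts in at least 3 libraries, together with 15800 genes in all.

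The study compared dissected cortices of Zmiz1f/f mice, called wildtype, with those of Zmiz1f/f;Emx1Cre mice, labelled Zmiz1-KO, in 3 libraries each. Both groups therefore carried the floxed allele of Zmiz1, a transcriptional coregulator, and only the second carried Cre. Emx1 drives Cre in the progenitors of the dorsal telencephalon, which give rise to excitatory neurons and macroglia, so inhibitory neurons that migrate in from outside, vessels and microglia keep an intact gene. One label also speaks of progenitor cells isolated from these cortices, whereas the study's methods describe whole dissected cortex. Whether a library came from 1 animal, and from which litter, is not given in the sources used here, and p-values measure the spread between these libraries only.

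The sums of normalized counts were 32661979 to 33239707 per library, and the number of counted reads was estimated at 15494888 to 17858395. Zmiz1 itself went against its label, since libraries labelled Zmiz1-KO held more of it, with 9794 ± 143 normalized counts (SD, n = 3) against 7836 ± 339 in wildtype, a rise of 0.32 on the log2 scale (limma adjusted p = 0.00125). The table gives 1 value per gene and cannot show whether the floxed part was lost. A transcript that persists after the deletion and an exchange of the group labels cannot be told apart here, and an exchange would turn the direction of every difference given below, so the groups are named by their labels. Wildtype replicate 3 and Zmiz1-KO replicate 2 had 25307 and 24403 normalized counts of Xist, transcribed from the inactive X chromosome, against 12.9 to 57.3 in the others, so each group held 1 female library.

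Early genes are transcribed without new protein synthesis. Calcium that enters an active neuron, and the ERK kinases, act on factors that already sit on the promoters, SRF with its ternary complex partners at CArG boxes and CREB at cAMP response elements (CREs). The products of the early genes are mostly transcription factors that go on to switch on later genes of synapses and growth, and their short-lived mRNAs are widely used as a record of recent neuronal activity.

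Every one of the 10 genes had a higher mean in the libraries labelled Zmiz1-KO than in wildtype, by log2 fold changes of 0.02 (Nr4a3) to 0.53 (Egr1) with a median of 0.23, where the median of all tested genes was -0.00018 and 49.9% of them lay above 0. The genes fell into those that differed by more than 0.2, namely Egr1, Egr4, Ier2, Egr2, Npas4 and Nr4a1, and those that differed by less than 0.1, namely Egr3, Srf, Ier5 and Nr4a3. In 5 of the 10, all 3 libraries labelled Zmiz1-KO lay above all 3 wildtype libraries, and in none all 3 lay below. Over all tested genes the groups stood apart upwards in 8.1% and downwards in 8.16%. Only Egr1 passed the threshold (limma adjusted p at or under 0.05), as did 0.165% of all tested genes upwards. Since the genes were chosen with this comparison known, nothing is read from these counts. In bulk tissue, more cells that express a gene and more of its RNA per cell cannot be told apart.

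**Figure D1:**
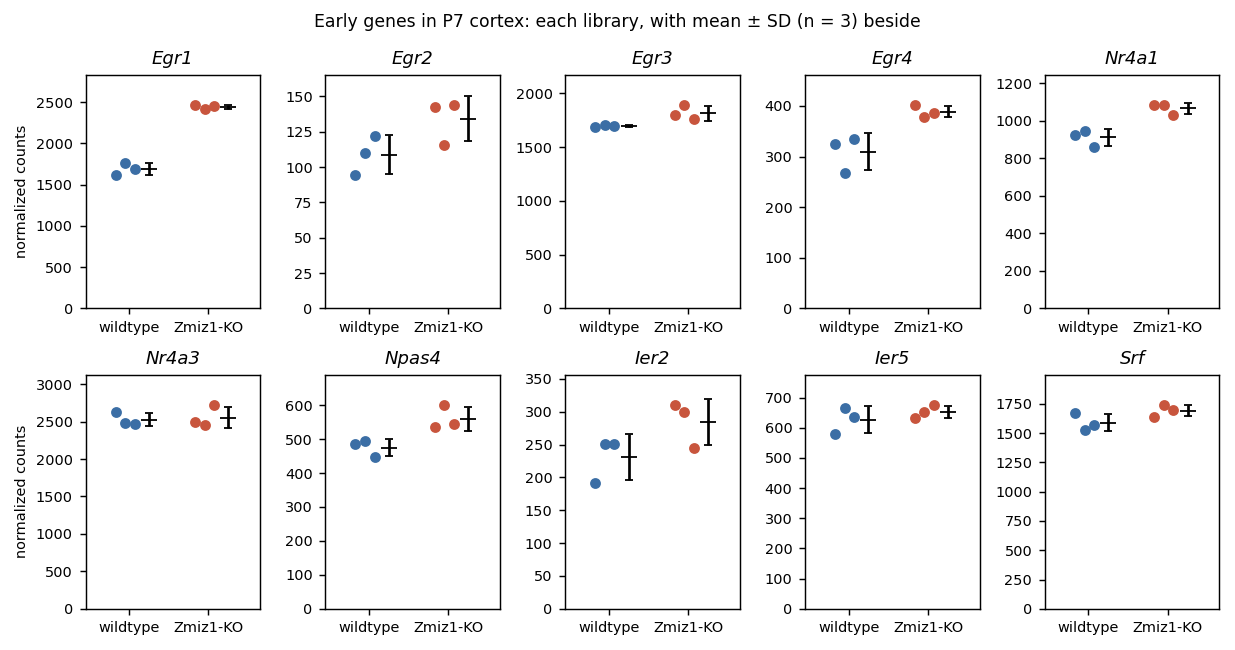
Normalized counts (vertical axes, each from 0) of the 10 early genes in the 3 wildtype libraries (blue) and the 3 libraries labelled Zmiz1-KO (red), with the mean ± SD of each group in black. Egr1 shows the clearest gap, from at most 1762 to at least 2416 normalized counts, and the groups stand apart in Egr3, Egr4, Nr4a1 and Npas4 as well.

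The EGR proteins are zinc finger factors that bind GC-rich sites, and Egr1 is the member most used to mark active cortical neurons. Egr1, on chromosome 18 of GRCm38 from 34859823 to 34864984, held 1621, 1762 and 1691 normalized counts in wildtype (replicates in order, here and for the genes that follow), and 2465, 2416 and 2453 under the Zmiz1-KO label. The lowest library labelled Zmiz1-KO was thus well above the highest wildtype library. The means were 1691 ± 70.7 and 2445 ± 25.5 (SD, n = 3 per group), which is 44.5% higher, and the log2 fold change was 0.53 (standard error 0.049).

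Egr4, on chromosome 6 from 85511121 to 85513589, followed with 325, 268 and 336 normalized counts in wildtype and 402, 379 and 386 under the Zmiz1-KO label. The groups did not overlap, although wildtype replicate 2 was low. The means of 309 ± 36.6 and 389 ± 11.6 (SD, n = 3 per group) gave a log2 fold change of 0.34 (standard error 0.11). Egr3, on chromosome 14 from 70077203 to 70082614, which acts in long-lasting plasticity, had 1690.2, 1709 and 1701 normalized counts in wildtype and 1796, 1892 and 1759 under the Zmiz1-KO label. Its wildtype libraries were closer to one another than those of any other of the 10 genes, and the groups stood apart by a small step, a log2 fold change of 0.09 (standard error 0.051).

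Egr1 and Egr3 had nearly equal counts in wildtype, so their ratio within a library shows how unequal their shifts were without the factor that scales a whole library. The deposited values seem to carry factors that differ between genes as well, and these would remain in a ratio. The ratio of Egr1 to Egr3 was 0.959, 1.03 and 0.994 in wildtype and 1.37, 1.28 and 1.39 under the Zmiz1-KO label. The ratio of Egr1 to Srf behaved alike, with 1.07 ± 0.0921 against 1.45 ± 0.0561 (SD, n = 3 per group), and neither ratio overlapped between the groups. Both ratios carry the group difference of Egr1, which was known when the genes were chosen, so they are a description only.

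Egr2, on chromosome 10 from 67535475 to 67542188, is best known from hindbrain patterning and Schwann cell myelination and was the scarcest of the set. It had 94.6, 109.9 and 122 normalized counts in wildtype and 143, 116 and 144 under the Zmiz1-KO label. Zmiz1-KO replicate 2 fell among the wildtype values, and the log2 fold change of 0.30 had a standard error of 0.17. RefSeq lists 5 starts for Egr2, and 4 of the windows from 250 bases before to 50 bases after these starts hold a CArG box, the binding site of SRF. Those that begin at 67537619, 67537620 and 67537680 overlap and hold the same box, so these windows are not separate cases. The other window with a box, at chr10:67537316-67537615 on the plus strand of GRCm38.p6, is shown because CArG boxes are rare. They were found in 1.63% of the 32851 RefSeq windows of that length. ETS sites, where the partners of SRF bind, also lie on both sides of the box shown. The capitals mark the CArG box, which begins 72 bases before the start.
Egr2: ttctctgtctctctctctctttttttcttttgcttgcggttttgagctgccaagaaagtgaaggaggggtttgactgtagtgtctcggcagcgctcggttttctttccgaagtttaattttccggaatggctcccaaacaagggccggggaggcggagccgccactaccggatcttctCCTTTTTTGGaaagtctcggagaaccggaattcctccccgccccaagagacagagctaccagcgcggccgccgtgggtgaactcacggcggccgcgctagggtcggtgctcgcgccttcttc

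Nr4a1 and Nr4a3 encode orphan nuclear receptors, whose activity is set mainly by how much of them is made. Nr4a1, on chromosome 15 from 101254269 to 101274795, held 924, 947 and 859 normalized counts in wildtype and 1083, 1082 and 1031 under the Zmiz1-KO label. The groups did not overlap, and the means of 910.2 ± 45.7 and 1065 ± 29.7 (SD, n = 3 per group) gave a log2 fold change of 0.23 (standard error 0.064). Nr4a3, on chromosome 4 from 48045153 to 48086447, held 2626, 2475 and 2472 normalized counts in wildtype and 2498, 2448 and 2717 under the Zmiz1-KO label. These values were interleaved, with both the lowest and the highest under the label Zmiz1-KO, and the log2 fold change was 0.02 (standard error 0.051). It was the smallest of the set, and without Zmiz1-KO replicate 3 it turned to -0.029. The ratio of Nr4a1 to Nr4a3 was 0.361 ± 0.0191 in wildtype and 0.418 ± 0.0339 under the Zmiz1-KO label (SD, n = 3 per group), and it overlapped between the groups.

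The promoter windows of these relatives are shown next to each other because both hold 4 CRE cores (TGACG, on either strand). The genes differed in how far their groups lay apart, and a link to the cores was not tested. Only 0.231% of the RefSeq windows hold 4 or more, and 20.8% hold at least 1. The windows are chr15:101266596-101266895 for Nr4a1 and chr4:48045055-48045354 for Nr4a3, both on the plus strand of GRCm38.p6, and the capitals mark the cores.
Nr4a1: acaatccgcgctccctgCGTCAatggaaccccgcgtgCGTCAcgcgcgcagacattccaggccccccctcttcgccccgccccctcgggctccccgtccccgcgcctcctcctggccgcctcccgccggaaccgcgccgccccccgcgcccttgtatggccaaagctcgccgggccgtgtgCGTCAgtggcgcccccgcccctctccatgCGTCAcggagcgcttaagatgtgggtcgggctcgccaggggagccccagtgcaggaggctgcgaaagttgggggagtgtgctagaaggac
Nr4a3: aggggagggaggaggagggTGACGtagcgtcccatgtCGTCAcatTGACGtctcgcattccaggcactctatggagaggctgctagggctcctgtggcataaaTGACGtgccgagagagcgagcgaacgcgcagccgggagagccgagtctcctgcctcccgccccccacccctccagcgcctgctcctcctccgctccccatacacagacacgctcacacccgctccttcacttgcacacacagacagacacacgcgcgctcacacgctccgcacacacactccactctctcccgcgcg

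Npas4, on chromosome 19 from 4984355 to 4990316, is a bHLH-PAS factor found mostly in neurons and induced by calcium influx in particular. It had 484, 494 and 448 normalized counts in wildtype and 536, 599 and 544 under the Zmiz1-KO label, with the groups apart and Zmiz1-KO replicate 2 highest. The means were 475 ± 24.2 and 559.7 ± 34.6 (SD, n = 3 per group), and the log2 fold change was 0.24 (standard error 0.084). Its promoter window, at chr19:4989922-4990221 on the minus strand of GRCm38.p6, is shown because it holds 2 CRE cores in opposite directions with 5 bases between them, and 5.01% of the RefSeq windows hold 2 or more. The capitals mark the cores.
Npas4: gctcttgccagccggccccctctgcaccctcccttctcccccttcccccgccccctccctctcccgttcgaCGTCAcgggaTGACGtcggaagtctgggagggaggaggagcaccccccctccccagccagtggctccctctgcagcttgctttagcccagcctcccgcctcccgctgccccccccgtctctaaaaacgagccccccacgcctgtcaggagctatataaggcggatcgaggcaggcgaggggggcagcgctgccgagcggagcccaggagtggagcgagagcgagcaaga

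The IER proteins are small products of early genes that take part in growth control and stress responses. Ier2, on chromosome 8 from 84661331 to 84662852, was the most variable of the set, with 191, 251 and 251 normalized counts in wildtype and 309.7, 299 and 245 under the Zmiz1-KO label. The groups overlapped through Zmiz1-KO replicate 3, and the means of 231 ± 34.8 and 285 ± 34.6 (SD, n = 3 per group) gave a log2 fold change of 0.30 (standard error 0.13). Ier5, on chromosome 1 from 155096361 to 155099636, held 578, 667 and 637 normalized counts in wildtype and 631, 651 and 674 under the Zmiz1-KO label. Apart from wildtype replicate 1, which was lowest, the groups were interleaved, and the log2 fold change was 0.06 (standard error 0.077).

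Srf, on chromosome 17 from 46548329 to 46556175, encodes serum response factor, which binds CArG boxes of many early genes. It had 1675, 1532 and 1568 normalized counts in wildtype and 1641, 1738 and 1696 under the Zmiz1-KO label. Wildtype replicate 1 was above Zmiz1-KO replicate 1, so the groups overlapped, and the log2 fold change was 0.09 (standard error 0.054). The promoter window of Srf, at chr17:46556113-46556412 on the minus strand of GRCm38.p6, is shown because it holds 2 CArG boxes of its own, a pair that 0.0183% of the RefSeq windows hold. They begin 82 and 62 bases before the start and stand in capitals.
Srf: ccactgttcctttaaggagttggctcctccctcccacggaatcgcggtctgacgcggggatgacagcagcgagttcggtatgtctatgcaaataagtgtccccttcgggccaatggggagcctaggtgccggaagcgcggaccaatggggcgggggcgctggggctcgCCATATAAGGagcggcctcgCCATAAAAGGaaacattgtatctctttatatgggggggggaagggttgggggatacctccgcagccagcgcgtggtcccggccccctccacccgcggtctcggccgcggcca

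**Figure D2:**
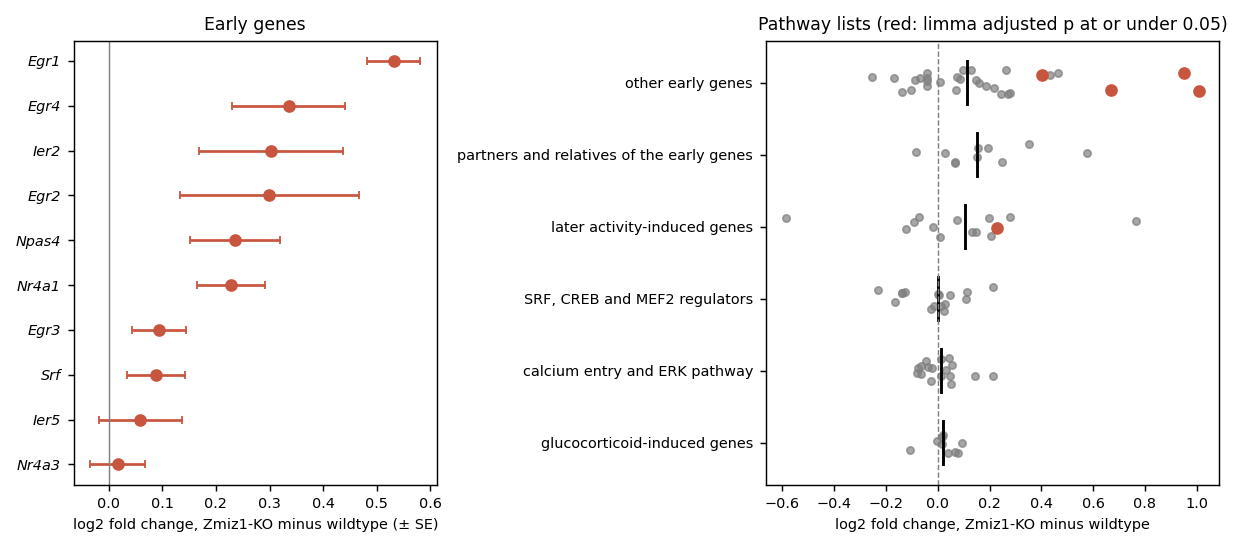
Log2 fold changes of libraries labelled Zmiz1-KO against wildtype. The left panel gives the 10 early genes with their standard errors, from 0.02 for Nr4a3 to 0.53 for Egr1. The right panel gives the genes of 6 related lists as points, red where the limma adjusted p was at or under 0.05, with the median of each list as a black bar and that of all tested genes as a dashed line. The 5 red points lie to the right of 0.

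Promoter windows of 7 of the 10 genes could be searched in the RefSeq table, namely those of Egr2, Egr4, Nr4a1, Nr4a3, Npas4, Ier5 and Srf, on both strands. CRE cores, found in 20.8% of all windows, were in 6 of the 7 genes, the exception being Ier5. The full CRE (TGACGTCA), found in 1.79% of all windows, was in none. Egr2 had 5 windows and each other gene 1, whereas the shares count single windows. CArG boxes were in Egr2 and Srf. The ETS core (CCGGAA), in 14.9% of all windows, was in Egr2, Nr4a1 and Srf. An EGR site (GCGNGGGCG), in 5.55% of all windows, was in Nr4a1 and Srf, where it overlaps a GC box (GGGCGG). GC boxes, in 35.7% of all windows, were in 6 of the 7, with Egr4 lacking one. AP-1 sites (TGANTCA), NR4A sites (AAAGGTCA) and MEF2 sites were in none, and occur in 7.81%, 1.51% and 3.19% of all windows. Ier5, with GC boxes as its only matches, and Nr4a3, with 4 CRE cores, had the 2 smallest log2 fold changes. A link between motifs and fold changes was not tested. A match shows only that the letters are there, and whether a factor was bound was not measured.

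**Figure D3:**
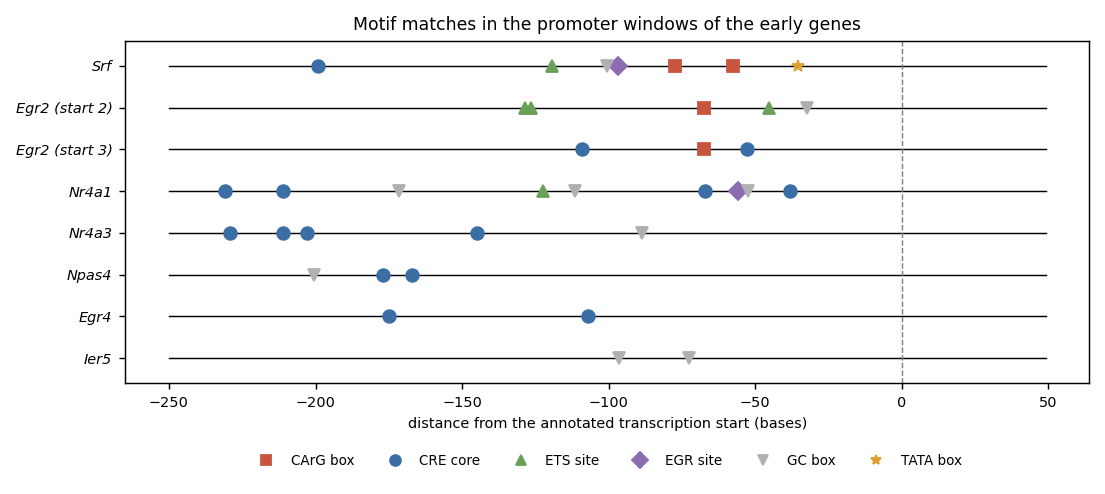
Positions of motif matches, in bases from the annotated start (0, dashed), in windows that reach from 250 bases before to 50 bases after it, for the 7 genes with a window. For Egr2, 2 of its 5 starts are drawn. CArG boxes (red squares) appear in Srf and Egr2, and CRE cores (blue circles) in Srf, Egr2, Nr4a1, Nr4a3, Npas4 and Egr4.

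The 10 genes had mostly a compact structure, which their choice did not use. Their gene spans had a median of 5.69 kb, against 25.3 kb over 14787 protein-coding tested genes matched to GENCODE, and 9 of the 10 were below that median, Nr4a3 with 41.3 kb being the exception. Ier2 and Ier5 have a single exon, the 4 Egr genes have 2, and Srf, Nr4a1, Nr4a3 and Npas4 have 7 or 8, all below the median of 9. The pentamer ATTTA, a core of AU-rich elements that shorten the life of an mRNA, was not uniformly frequent in their annotated 3′ UTRs. Nr4a1 had 5.52 per kb, more than 95.4% of genes with a 3′ UTR of at least 100 bases, Egr3 had 2.65 and Egr2 had 2.5 per kb, and Egr4 and Ier2 had none. The median of the 10 was 1.51 per kb against 1.35 over the background genes. Egr1, which differed most between the groups, had 1.64 per kb, close to the 1.62 per kb of Nr4a3, which differed least. A link between the pentamer and the group differences was not tested. No 75-base stretch of a transcript of these genes occurs in a transcript of another gene, and no exon of theirs overlaps an exon of another gene.

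Levels of different genes were compared as normalized counts per kb of the longest annotated transcript. The deposited values seem to carry factors that differ between genes, and these would remain in the levels and their order. In wildtype Srf was highest with 608 ± 28.4 per kb (SD, n = 3), followed by Nr4a3 (441 ± 15.4) and Egr3 (432 ± 2.43), whose libraries overlapped, then Egr1 (377 ± 15.8) and Nr4a1 (357 ± 17.9), which overlapped as well. Below a gap came Ier5 with 191 ± 13.8 per kb, then Ier2, Egr4 and Npas4 with 152 ± 22.8, 144 ± 17.1 and 125 ± 6.40 per kb, which overlapped in that order, and last Egr2 with 36.7 ± 4.62. In the libraries labelled Zmiz1-KO, Egr3 and Nr4a3 overlapped again in the opposite order of means, the genes from Nr4a1 down kept their order, and Egr1 moved up. At 545 ± 5.69 per kb it stood second after Srf (647 ± 18.6) and above Egr3 (461 ± 17.4) and Nr4a3 (447 ± 25.0) in all 3 libraries. Nr4a1 reached 417 ± 11.7 per kb and remained below Nr4a3.

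Within a group the genes did not rise and fall as a block. After subtraction of each gene's group mean on the log2 scale, the 45 pairs of genes had correlations between -0.92 (Egr1 with Srf) and 0.85 (Egr1 with Ier5) over the 6 libraries, with a median of -0.05 and 21 of 45 above 0. These correlations rest on 6 libraries with 2 means removed and share the depth of each library, so they are a description only. The mean deviation of the 10 genes in a library was at most 0.02 above its group mean, in wildtype replicate 3, and fell by at most 0.04 below it, in wildtype replicate 1. No library carried a raised or lowered level of the whole set within its group. In 7 of the 10 genes the spread between replicates was smaller than that of most genes of like level. It was smallest by this measure in Egr3, where 15.5% of such genes had a smaller SD, followed by Egr1 with 25.0%, and largest in Ier2 with 84.1%.

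**Figure D4:**
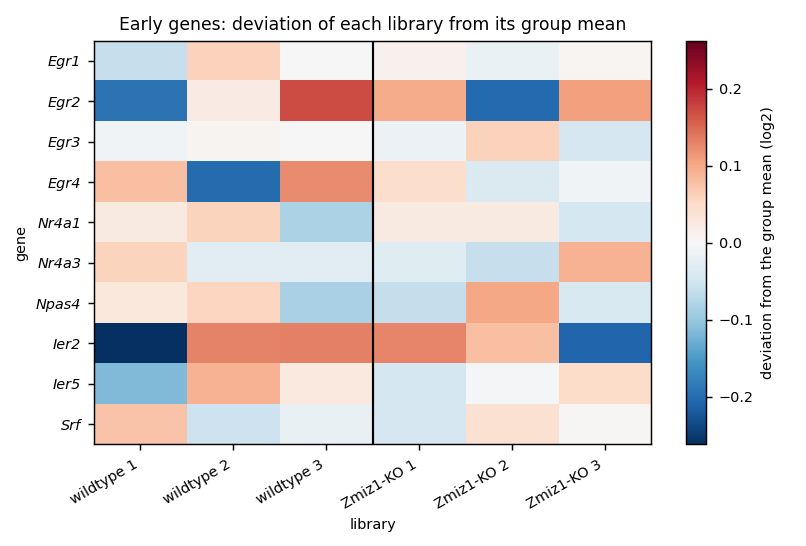
Deviation of each library from its group mean, as a difference of log2(normalized counts + 1) shown by color, for the 10 early genes (rows) in the 6 libraries (columns, wildtype left of the line). Ier2, Egr2 and Egr4 deviate most, Egr1 and Egr3 least, and no column has a single color.

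Over all 6 libraries, with the groups left in, the mean of the 10 genes on the log2 scale was -0.15, -0.10 and -0.09 in wildtype and 0.12, 0.11 and 0.10 under the Zmiz1-KO label, relative to the mean of all libraries. Egr1 followed the mean of the other 9 most closely (Pearson r = 0.99, 6 libraries), Nr4a1 had r = 0.86 and Nr4a3 r = -0.02. Outside the set, the tested genes most like its mean were Magohb, Zfp869, Ankrd61, Gm6402 and Lrpap1, with r from 0.990 to 0.996. These correlations hold the group difference that chose the set, over 6 libraries that share their scaling. Lrpap1, a chaperone of lipoprotein receptors, had 3693 ± 14.5 normalized counts in wildtype and 4008 ± 29.6 under the Zmiz1-KO label (SD, n = 3 per group). None of these 5 genes passed the threshold (limma adjusted p from 0.247 to 0.517), and 4 of them had an unadjusted p under 0.05. They were picked by a pattern that holds the group difference, so nothing is read from these p-values.

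Of 16 regulators of the SRF, CREB and MEF2 groups, all tested, none passed the limma test, as 0.411% of all tested genes did, and 3 had an unadjusted p under 0.05. With limma-voom none passed either. Their log2 fold changes ran from -0.23 to 0.21 with a median of 0.0018. The lowest was that of the most abundant, Mef2c, a factor of neuronal differentiation and synapse number, with 41300, 32654 and 36465 normalized counts in wildtype and 32605, 29651 and 31395 under the Zmiz1-KO label (standard error 0.094, limma adjusted p = 0.466). Mef2c passed without wildtype replicate 2 (limma adjusted p = 0.0426) and in a fit blocked by replicate number (0.00848), and not without any other library. The other 15 regulators, among them the SRF coactivators Mrtfa and Mrtfb, listed as Mkl1 and Mkl2, did not pass the limma test either.

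Of 17 genes of calcium entry and the ERK pathway, none passed with limma or limma-voom, and 2 had an unadjusted p under 0.05. Their log2 fold changes were narrowly spread, from -0.08 to 0.21, with a median of 0.01. Camk2b, a calcium-dependent kinase and the most abundant of them, had 36939 ± 1266 normalized counts in wildtype and 37281 ± 626 under the Zmiz1-KO label (SD, n = 3 per group; limma adjusted p = 0.928).

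Of 10 partners and relatives of the early genes, none passed with limma or limma-voom, 3 had an unadjusted p under 0.05, and 9 had a log2 fold change above 0, with a median of 0.15. Arnt2, the dimerization partner of Npas4 and the most abundant, had 12335 ± 354 normalized counts in wildtype and 12932 ± 71.7 under the Zmiz1-KO label (SD, n = 3 per group; log2 fold change 0.07, limma adjusted p = 0.517). The retinoid receptor Rxrg, a partner of Nr4a1 that was singled out after its values were seen, had the largest fold change of the list. It had 596, 941 and 920.4 normalized counts in wildtype and 1220, 1247 and 1126 under the Zmiz1-KO label, or 0.58 higher on the log2 scale (limma adjusted p = 0.412). Without wildtype replicate 1 that change was 0.36 and passed (limma adjusted p = 0.0486).

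Of 30 other early genes, 4 passed the limma test, all of them higher, against 0.165% of all tested genes in that direction, and 20 had a log2 fold change above 0, with a median of 0.11. In 14 of the 30 the libraries labelled Zmiz1-KO stood above all wildtype libraries, and in none below, where 8.1% and 8.16% of all tested genes did so. The 4 were Fosb (log2 fold change 1.01, limma adjusted p = 0.0478) and Fos (0.95, 0.00125), subunits of the AP-1 factor, Klf4 (0.67, 0.0305), a Krüppel-like zinc finger factor, and Arc (0.40, 0.0444), which acts in AMPA receptor endocytosis. Fos had 175, 229 and 222 normalized counts in wildtype and 380.4, 402 and 424 under the Zmiz1-KO label, so its groups lay far apart. Arc had 446, 498 and 505 against 644, 678 and 596, also without overlap. The list was drawn up with the rise of several of these genes known. Jund, the most abundant of the list, had 3460 ± 62.5 and 3699 ± 67.0 normalized counts (SD, n = 3 per group; log2 fold change 0.10, limma adjusted p = 0.400).

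Leaving out single libraries changed these calls. Fos kept its call whichever library was left out, at limma adjusted p values of 0.00191 to 0.0301. Arc lost its call whichever library was left out, at limma adjusted p values of 0.0613 to 0.213. Fosb lost its call without wildtype replicate 1 (limma adjusted p = 0.167) or 3 (0.113) or without Zmiz1-KO replicate 1 (0.213) or 3 (0.340). Klf4 lost it without wildtype replicate 2 (limma adjusted p = 0.0722) or 3 (0.0853) or without Zmiz1-KO replicate 1 (0.20) or 3 (0.142). Egr1 passed without each library in turn, and its log2 fold change stayed between 0.50 and 0.56.

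Of 14 later activity-induced genes, 1 passed, against 0.165% of all tested genes upwards. It was Vgf, a secreted neuropeptide precursor, which was 0.23 higher on the log2 scale (limma adjusted p = 0.0222). Its call was lost without wildtype replicate 1 (limma adjusted p = 0.0784) or 3 (0.0704) or without Zmiz1-KO replicate 1 (0.0886) or 3 (0.178). The log2 fold changes of the list had a median of 0.10 and ran from -0.59 in Inhba, a subunit of activin, to 0.77 in Ptgs2, the inducible cyclooxygenase, and neither of these passed (limma adjusted p of 0.121 and 0.523). Inhba passed in the blocked fit (limma adjusted p = 0.00759). Plk2, a kinase of synaptic scaling and the most abundant of the list, had 6338 ± 265 and 6258 ± 105 normalized counts (SD, n = 3 per group; limma adjusted p = 0.922). Of 9 glucocorticoid-induced genes, which mark a stress hormone response, none passed with limma or limma-voom, none had an unadjusted p under 0.05, and the median log2 fold change was 0.02. Ddit4, the most abundant of them, had 1759 ± 98.2 normalized counts in wildtype and 1807 ± 30.1 under the Zmiz1-KO label (SD, n = 3 per group; limma adjusted p = 0.851).

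Markers of several cell types moved with the groups. The defining markers of cortical excitatory neurons were present, with summed levels of 44670 to 51317 normalized counts in wildtype and 43696 to 46261 under the Zmiz1-KO label. Of the 8 markers, 7 had a log2 fold change below 0, none past the threshold (limma). The most abundant, Slc17a7, counts among the 7 at -5.46e-06 and so was level between the groups. All 9 markers of striatal projection neurons, which express Egr1, Nr4a1 and Arc as well, had a log2 fold change above 0, and their sum was 15869 to 20799 in wildtype and 22459 to 25076 under the Zmiz1-KO label. All 8 markers of inhibitory neurons were above 0 too, with sums of 13306 to 17557 and 17827 to 19857. All 5 markers of meningeal fibroblasts were above 0, with sums of 14516 to 17595 and 19241 to 21235. The groups did not overlap in the sum of any of these 3 lists. Single genes stood apart upwards in 8.1% and downwards in 8.16% of all tested genes, and no such share is at hand for sums. Wildtype replicate 1 had the lowest sum in each of the 3, and whether the striatal and inhibitory lists mark separate cells was not tested. Among single markers, 1 striatal gene (Pde10a) and 1 meningeal gene (Col1a2) were higher and 1 astrocyte gene (Aqp4) was lower at a limma adjusted p at or under 0.05.

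The sums of the oligodendrocyte list were 11130 to 12623 in wildtype and 10321 to 10911 under the Zmiz1-KO label. The groups did not overlap in this list either, with wildtype higher. Those of the lists for vessels, astrocytes, microglia and blood overlapped between the groups. The choroid plexus list ran from 293 to 8198 in wildtype and from 288 to 4774 under the Zmiz1-KO label, a spread that sets libraries apart within each group. No marker of any list was at 0 in all libraries. The part of these cell types in the levels of the early genes was not tested.

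**Figure D5:**
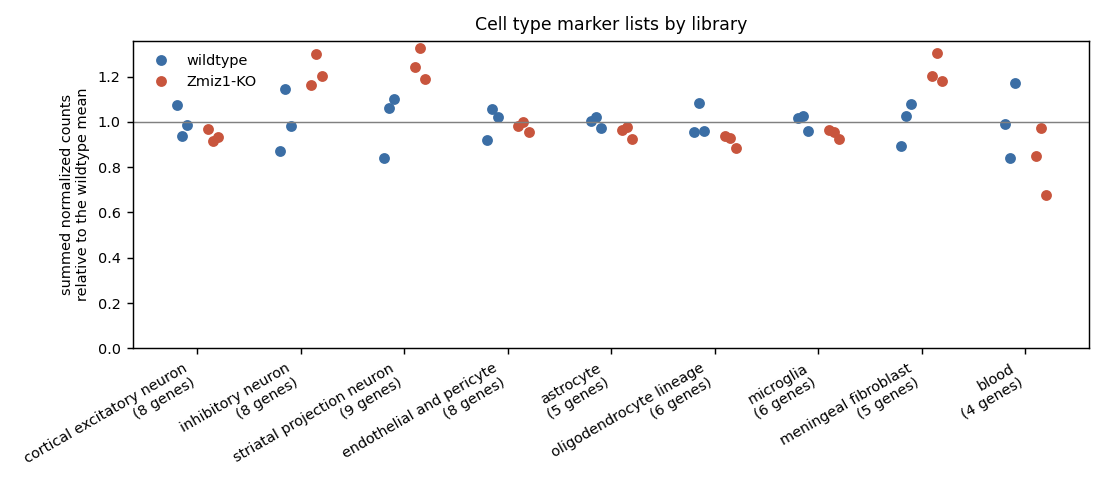
Summed normalized counts of each cell type marker list, relative to the mean of the 3 wildtype libraries (vertical axis from 0), in wildtype (blue) and in libraries labelled Zmiz1-KO (red). The striatal, inhibitory and meningeal lists lie higher in all 3 red libraries, and the other lists overlap or lie lower. The choroid plexus list, which varies most, is not drawn.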

How the data were processed

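RNA from cortices of postnatal day 7 mice was sequenced from poly(A) libraries made with a kit that does not keep strand. Reads were aligned to mm10 with STAR in Illumina BaseSpace and counted per gene, and the authors deposited values normalized with DESeq2, a signal per gene and library called normalized counts here. Versions, annotation and sequencing depth are not given in the sources used here. Values are not whole multiples of 1 step per library, so whole reads were not recovered, count tests were not run, and depth is an estimate, the sum divided by the commonest low value.

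Genes that reached 10 in no fewer than 3 libraries were compared on log2(value + 1) in limma 3.58.1 under R 4.3.3, using an intensity trend, robust prior and Benjamini-Hochberg adjustment over all 15800, two-sided, threshold 0.05. Fold changes are on that scale. The smallest p of an exact permutation test of 3 against 3 is 0.1. The procedure was run on simulated counts, in which all genes shared the same dispersion and all libraries the same step. The deposited values have no such step, so that run does not show how the procedure performs on them. The early genes, lists and motifs were chosen with earlier results of these data known. The genes named are all 10 early genes, Zmiz1, Xist, Ddx3y, list genes past the threshold, the most abundant gene of each list, and the 5 genes whose pattern was closest to the mean of the set. Rxrg, Inhba, Ptgs2, the SRF coactivators, Slc17a7, Pde10a, Col1a2 and Aqp4 were added after their values were seen. Gene models are GENCODE M21 (GRCm38), promoters RefSeq GRCm38.p6, and figures were drawn with matplotlib 3.10.9. Columns were matched to samples by the library number in each description. Alternatives were median-ratio and upper-quartile scaling, limma-voom, other filters and pseudocounts, no trend, the replicate number as a block, a sex covariate, each library left out, and, added after the data were seen, both female libraries left out.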

Additional observations from a re-analysis of the deposited data

How the results depend on the processing

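Over 17 alternatives the 10 early genes gave 170 log2 fold changes, of which 168 kept their direction and side of the threshold. Nr4a3 reversed to -0.029 without Zmiz1-KO replicate 3 and reached 0.046 without Zmiz1-KO replicate 2. Egr1 passed in 16 of 17 (limma adjusted p from 1.62e-05 to 0.192) and failed without trend and robust estimation, where 1 of the 15800 genes passed (lower), and 0 early genes, 0 other early genes and 0 later genes. The cause was not tested. In other settings the 65 genes past the threshold became 168 with the replicate number as a block, 106 at an adjusted p of 0.1 and 153 without both female libraries, and 12 to 152 with 1 library left out, the lowest without Zmiz1-KO replicate 3 and the highest without Zmiz1-KO replicate 2. It was 17 without Zmiz1-KO replicate 1 and 30 without wildtype replicate 1. The 4 other early genes past the threshold became 2 with limma-voom, 1 without both female libraries and 1 to 3 with 1 library left out. The later genes counted 2 with the block, 0 without both female libraries and 0 to 1 with 1 library left out, the SRF, CREB and MEF2 regulators 1 with the block and 0 to 1, and the partners and relatives 0 to 1. Early genes past the threshold stayed at 1 with each library left out. Deviations of libraries with the same replicate number correlated at -0.0051, -0.11 and -0.0063 over all tested genes. These values showed no pairing by number, and whether such libraries shared a litter or batch was not tested. Mef2c and Inhba were the calls that the block added in the 6 pathway lists. Fosb and Arc rested on adjusted p values near 0.05. Depth was known only as an estimate, so no counting error was attached to the values.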
